A study of Ginkgo biloba with 9 samples.

Results

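The 62 gene models described here were among the 100 with the highest mean level in yellow autumn leaves of Ginkgo biloba and were not among the 100 highest in green leaves. They were taken from 43834 gene models in all, and 38 further models were among the 100 highest at both stages. The level was the normalized count N, which is the read count divided by the library's DESeq2 median-of-ratios size factor, and the ranks rested on the mean N of 3 libraries per stage. The members were therefore chosen by the difference between green and yellow leaves, and that difference is given below as a description that supports nothing.

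Leaves of healthy adult trees growing outdoors were sampled in 1 autumn and their messenger RNA was sequenced, to follow senescence and coloration of the leaf. The mature stage, with green leaves, was sampled on September 12 and the turning stage on October 26. The senescence stage, with yellow leaves, followed on November 8, and each stage has 3 libraries. The first interval was 44 days and the second 13 days. The labels name 3 trees but do not say which library came from which tree, so a p-value reflects only how much these libraries vary. Stage and calendar date cannot be told apart, because leaves of a stage share 1 sampling day.

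Autumn senescence is an ordered dismantling of the leaf. In seed plants generally, chlorophyll and the photosynthetic proteins of the chloroplast are broken down, nitrogen and other nutrients are moved to the stem and to storage tissue, and carotenoids become visible as the green fades. Transcripts for photosynthesis dominate the messenger RNA of a working leaf, and during senescence other transcripts take over part of that place. Abundance in sequencing is relative, so a transcript can gain rank because it rises or because others fall. In these whole-leaf samples, fewer cells of a type and less RNA per cell cannot be told apart.

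No names, sequences or lengths of the gene models were used here. No role is therefore given to any member, the leaf's cell types were not checked by their markers, and levels are not compared per length, so that a rank follows the number of reads and favours long transcripts. Library totals ran from 23766331 to 32319325 counts. The size factors averaged 1.30 for green, 1.16 for turning and 0.691 for yellow libraries, so N puts yellow libraries higher relative to green ones than library totals do. The members were chosen by ranks within a stage, which a scaling between stages leaves in place. Identifiers began with Gb_ for 58 members and with the table's other prefix for 4, at yellow ranks 7, 30, 46 and 48. That other prefix was carried by 6.83% of the 23042 models tested, by 1 of the 62 models that led in green leaves only and by 1 of the 38 that led at both stages.

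The members together held 1.85%, 1.87% and 2.72% of the counts in green libraries 1, 2 and 3. They held 5.15%, 4.83% and 6.07% in the turning libraries and 10.8%, 12.1% and 12.1% in the yellow libraries. Green library 3 was the highest of its stage, and the stages did not overlap. The stage means were 2.15% ± 0.497, 5.35% ± 0.646 and 11.7% ± 0.739 (SD, n = 3 libraries each), of which the turning value did not enter the choice of members. The 62 models that led in green leaves only held 8.96% ± 1.43, 5.56% ± 0.521 and 2.64% ± 0.369 in green, turning and yellow leaves (SD, n = 3). The 38 models that led at both stages held 11.9% ± 0.931, 12.3% ± 1.02 and 12.1% ± 2.24 (SD, n = 3). At the turning stage the shares of the members and of the models that had led in green leaves only differed by less than the SD between libraries.

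**Figure D1:**
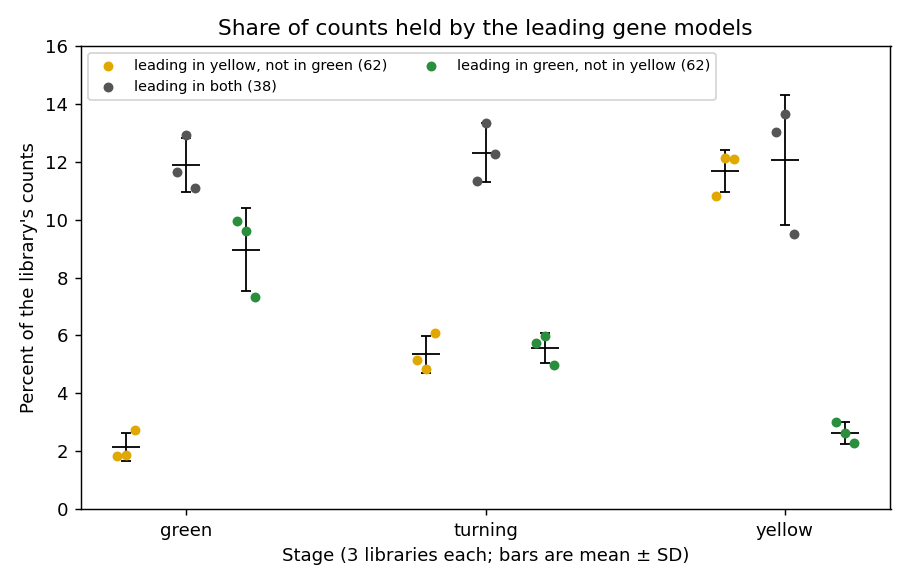
Percent of each library's counts (vertical axis) held by 3 groups of leading gene models at each stage, with 1 point per library and bars for the mean ± SD of 3 libraries. The members run from a mean of 2.15% in green to 11.7% in yellow leaves. The models leading at both stages have stage means near 12.1%, with single yellow libraries from 9.50% to 13.65%.

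Most members were already abundant in green leaves, and the name "yellow leaves only" holds for the rank limit but not for expression. In green leaves their ranks ran from 103 to 11069 with a median of 459.5. In that stage 13 members lay within the first 200 ranks, a further 19 within 500 and a further 15 within 1000, and 15 lay beyond. At the limit, the member with the highest green rank, 103, had a mean N of 17621 in green leaves, against 17762 for the model at green rank 100, which led at both stages. At the yellow limit the member at rank 100 had a mean N of 34896, and the next model, which is not a member, had 34527. No member was among the 100 highest in more than 1 green library, and 7 were among them in green library 3.

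At the turning stage the members ranked between 18 and 1724, with a median of 131.5. Of the 62, 24 were among the 100 highest of turning leaves, as were 28 of the 62 models that led in green only and all 38 that led at both green and yellow stages. The remaining 10 leading models of turning leaves belonged to neither list. A further 18 members lay within the first 200 ranks of that stage, 17 more within 500, and 3 lower, at ranks 711, 1488 and 1724. In yellow leaves 4 members were among the 10 highest and 25 among the 50 highest, and the other 37 filled the lower part of the 100. A better rank in turning than in yellow leaves was held by 7 members.

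**Figure D2:**
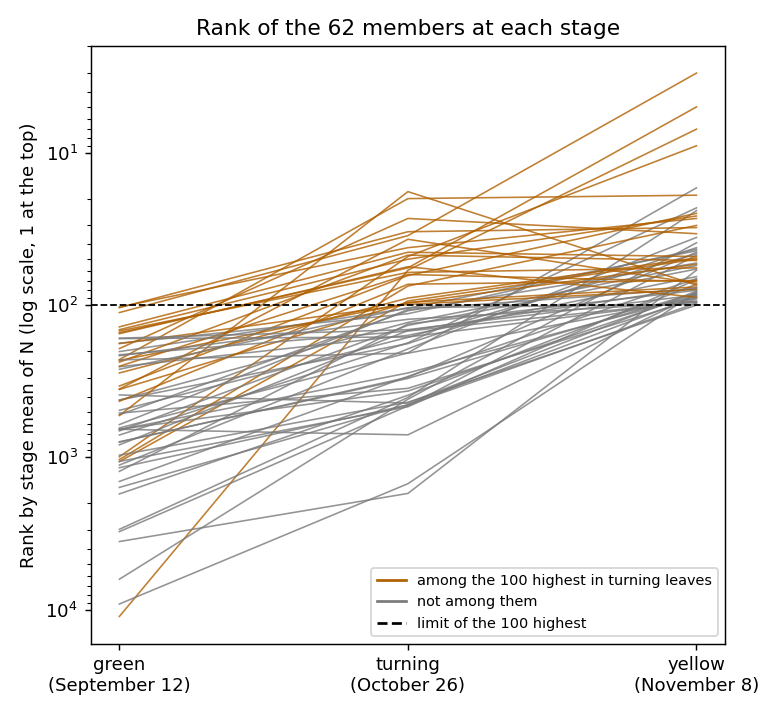
Rank of each of the 62 members by the stage mean of N (vertical axis, log scale with rank 1 at the top) in green, turning and yellow leaves, 1 line per member. Orange lines mark the 24 members already among the 100 highest in turning leaves, and the lowest green rank is 11069.

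The mean N of a member was 2.85 to 887 times as high in yellow as in green leaves, with a median of 7.89. On library totals alone the same ratios ran from 1.71 to 525 with a median of 4.66. The ratio of mean N was over 10 for 25 members, over 30 for 7 and under 4 for 9. All 62 members were called higher in yellow leaves, as were 30.2% of the models tested, and no overlap between yellow and green libraries was seen for any of the 62, against 33.0% of the models tested. Because the members were chosen on this contrast, nothing is read from these counts.

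By the rule for named models, the 2 most abundant members that passed the test between turning and yellow leaves were Gb_07845 and Gb_05866. Their p in that interval was thus part of how they were picked. Green and yellow libraries also entered the choice of members, so the values of both models are a description only. Gb_07845, at rank 3 in yellow leaves, had N of 16952, 14535 and 17562 in green libraries 1 to 3, 31519, 42541 and 55907 in turning libraries, and 236448, 348916 and 259336 in yellow libraries. The 3 stages did not overlap, and on the scale of N the turning libraries lay much nearer to the green than to the yellow ones. It was higher in turning than in green leaves by 1.41 ± 0.26 on the log2 scale (SE; adjusted p = 0.0082 by the quasi-likelihood test of edgeR with Benjamini-Hochberg adjustment over all models) and higher in yellow than in turning leaves by 2.67 ± 0.27 (SE; edgeR adjusted p = 0.000362). The log2 distance of its turning stage from the point midway between the other stages, -0.63 ± 0.22, did not pass the test (SE; edgeR adjusted p = 0.153).

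Gb_05866, at rank 5 in yellow leaves and rank 152 in green leaves, had N of 11761, 13138 and 15086 in green, 25717, 27036 and 43060 in turning, and 177270, 275186 and 277600 in yellow libraries. Its stages also did not overlap, and turning library 3 stood above the other turning libraries. Its log2 fold change was 1.27 ± 0.27 from green to turning leaves (SE; edgeR adjusted p = 0.0141) and 2.90 ± 0.29 from turning to yellow leaves (SE; edgeR adjusted p = 0.000348). The call in the first interval was lost without green library 1 (1.18 ± 0.32 SE, edgeR adjusted p = 0.058) and without green library 2 (1.26 ± 0.34 SE, edgeR adjusted p = 0.059). Over all alternatives its adjusted p in that interval ran from 9.27e-05 to 0.059.

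The other members are given by their rank in yellow leaves, and those singled out were chosen after their values were seen. The lowest green rank of all, 11069, was that of the member at rank 7, whose identifier carries the other prefix. Its N was 94, 209 and 381 in green libraries, 18519, 29909 and 45478 in turning libraries, and 186343, 231057 and 189423 in yellow libraries. The stages did not overlap, and its rank in turning leaves was 59. Its log2 fold change was 7.11 ± 0.63 in the first interval (SE; edgeR adjusted p = 0.00167) and 2.66 ± 0.51 in the second (SE; edgeR adjusted p = 0.00441).

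At rank 9 in yellow leaves, a member had N of 2927, 3387 and 4942 in green, 26614, 36550 and 45001 in turning, and 131730, 225970 and 225388 in yellow libraries. The stages were again separate, with a wider step in the first interval than for the members at ranks 3 and 5. Its log2 fold changes were 3.27 ± 0.33 and 2.40 ± 0.32 in the 2 intervals (SE; edgeR adjusted p = 0.00184 and 0.00091). The 4 members at ranks 3, 5, 7 and 9 together held 0.158% ± 0.0214 of the counts of green, 0.579% ± 0.177 of turning and 2.57% ± 0.429 of yellow libraries (SD, n = 3).

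The member at rank 39 was lower in green leaves than most other members. Its N was 999, 318 and 666 in green, 5970, 6878 and 12427 in turning, and 65187, 94371 and 68894 in yellow libraries. It stood at rank 6305 in green and 415 in turning leaves, and its steps in the 2 intervals were of similar size, at 3.68 ± 0.47 and 3.15 ± 0.46 on the log2 scale (SE; edgeR adjusted p = 0.00317 and 0.00134).

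**Figure D3:**
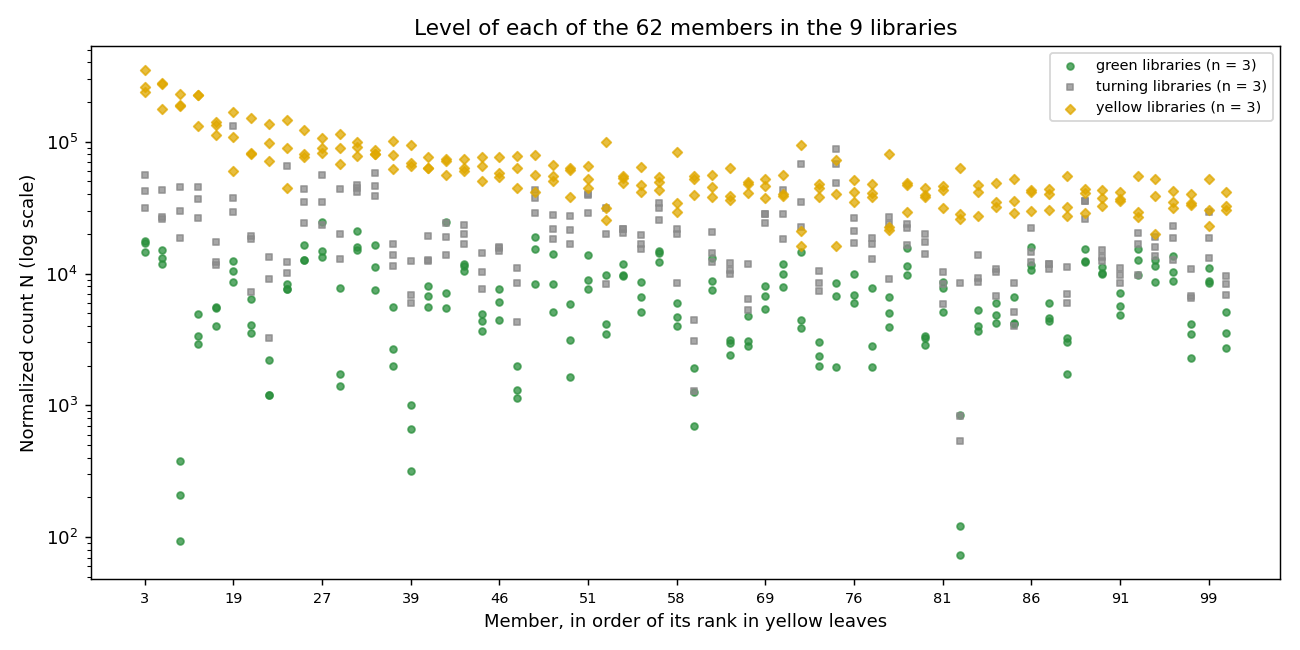
Normalized count N (vertical axis, log scale) of each of the 62 members in the 9 libraries, with members ordered by rank in yellow leaves and 1 symbol per library. The lowest green values belong to the members at ranks 7 and 82, and turning libraries mostly lie between green and yellow ones.

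The turning libraries did not enter the choice of members, but the green libraries with which they are compared in the first interval did. The choice thus favours higher calls here too, and nothing is read from a difference to all models tested. From green to turning leaves 46 members were higher, none was lower, and 16 did not pass the test (edgeR, adjusted p below 0.05), where 11.8% of all models tested were higher. Of the 46, 43 were at least 2-fold and 13 at least 4-fold higher, for which no share of all models tested was taken. The median log2 fold change of the members was 1.36, with quartiles of 1.12 and 1.95 and a range of 0.19 to 7.11, against a median of -0.02 over all models tested. Every turning library lay above every green library for 51 members and for 22.0% of all models tested. With library totals as the scaling, where the median of all models tested moved to -0.23, 40 members were higher, their median was 1.14 and 1 fitted fold change turned below 0. Without green library 1 the count was 30, when 9.31% of all models were called in either direction, and without green library 2 it was 24, when 8.36% were called, against 24.1% with all libraries.

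From turning to yellow leaves 48 members were higher, none was lower and 14 did not pass the test, where 20.5% of all models tested were higher (edgeR, adjusted p below 0.05). The yellow libraries in this comparison entered the choice of members. That choice favours higher over lower calls, so nothing is read from a difference to all models tested. Of the 48, 42 were at least 2-fold and 22 at least 4-fold higher, again without a share of all models tested. The median log2 fold change was 1.59, with quartiles of 1.06 and 2.27 and a range of -0.70 to 4.02, against -0.05 over all models tested. Every yellow library lay above every turning library for 52 members and for 25.8% of all models tested. With library totals, where the median of all models moved to -0.56, 33 members were higher, the members' median was 1.08, and 2 more fitted fold changes turned below 0.

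Green and yellow libraries entered the choice of members, and the 2 steps add up to the contrast used for it. What follows here is therefore a description, and nothing is read from a difference to all models tested. Of the 62 members, 37 passed the test upwards in both intervals, as did 6.67% of all models tested. A further 9 members passed the test in the first interval only, 11 in the second only and 5 in neither. Of all models tested, 11.8% were higher in the first interval and 20.5% in the second, whatever their call in the other interval. Members without a call cannot be read as level. For 42 members both steps were free of overlap between libraries, as they were for 11.7% of all models tested. The fitted log2 change had reached a median of 0.45 of its total by the turning stage, with quartiles of 0.34 and 0.608, and the share was under 0.5 for 37 members. The difference of the 2 steps was tested as the log2 distance of the turning stage from the point midway between the other stages. That distance passed the test for 1 member, the one at rank 7, which lay above the midpoint by 2.22 ± 0.40 (SE; edgeR adjusted p = 0.0364, from 2.01e-05 to 0.126 over all alternatives). The call was lost without any 1 of 8 libraries, with an adjusted p of 0.0562, 0.0908, 0.0736, 0.126, 0.0927, 0.0611, 0.0707 and 0.0553 in edgeR without green 1, green 2, turning 1, 2 and 3, and yellow 1, 2 and 3. Over all models tested 2.63% passed. At an unadjusted p below 0.05 the counts were 20 members and 21.3% of all models. With the library number as a block 10 members passed, 4 above and 6 below the midpoint, when 9.74% of all models were called, and with the DESeq2 test 13 passed, when 11.0% were called.

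**Figure D4:**
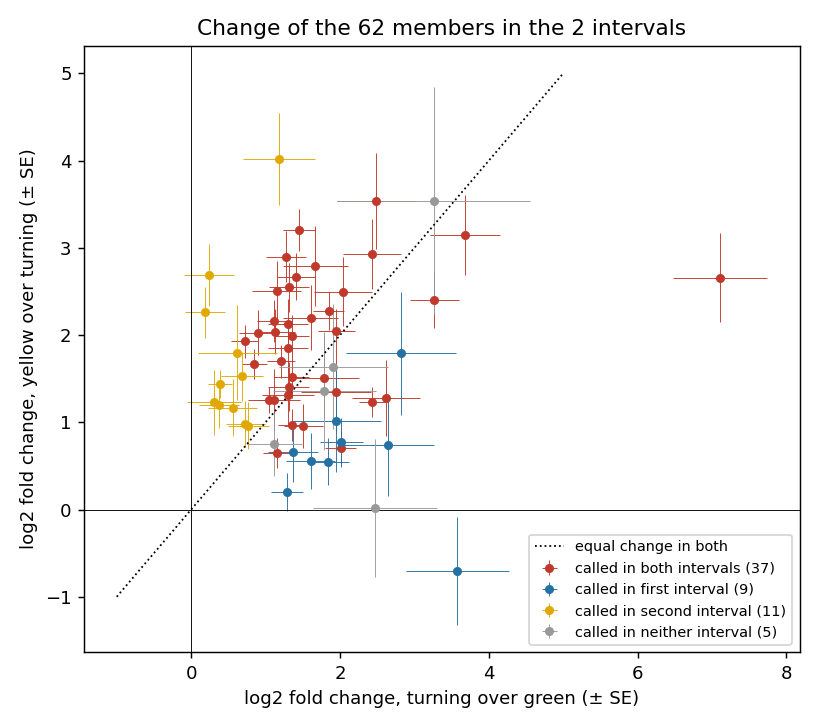
Log2 fold change of each member from green to turning leaves (horizontal axis) and from turning to yellow leaves (vertical axis), with bars for ± 1 SE and a dotted line of equal change. Colours give the interval in which a member was called, 37 in both, and the turning libraries enter both axes.

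Among the members called only in the second interval, those at ranks 81, 85 and 59 had the widest late steps. At rank 81, N was 7819, 5108 and 8597 in green, 5867, 8289 and 10340 in turning, and 31149, 42949 and 45774 in yellow libraries. Green and turning libraries overlapped and all yellow libraries stood apart. Its log2 fold change was 0.19 ± 0.27 in the first interval (SE; edgeR adjusted p = 0.638) and 2.26 ± 0.29 in the second (SE; edgeR adjusted p = 0.000734), and the first value turned to -0.02 with library totals. At rank 85 the order was the same, with 4205, 4176 and 6590 in green, 4029, 5125 and 8452 in turning, and 28568, 35741 and 51745 in yellow libraries.

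The largest log2 fold change of any member in the second interval was that of rank 59, 4.02 ± 0.53 (SE; edgeR adjusted p = 0.000925). Its N was 1261, 1933 and 699 in green, 1296, 4423 and 3084 in turning, and 39184, 52258 and 54559 in yellow libraries. Green and turning libraries overlapped through turning library 1, without which the first step passed the test, at 1.56 ± 0.40 (SE; edgeR adjusted p = 0.0416), while it did not with all libraries, at 1.18 ± 0.48 (SE; edgeR adjusted p = 0.104). With all libraries that step passed in DESeq2 (DESeq2 adjusted p = 0.046) but not in limma-voom (limma-voom adjusted p = 0.108). By contrast, the member at rank 17 was called in both intervals, at 1.45 ± 0.22 and 3.21 ± 0.24 (SE; edgeR adjusted p = 0.00461 and 0.000233). Its N was 5616, 4009 and 5443 in green, 12201, 11521 and 17236 in turning, and 112041, 134104 and 140052 in yellow libraries.

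The turning and yellow libraries of some members overlapped. At rank 74, N was 1942, 6751 and 8502 in green, 67255, 48329 and 88781 in turning, and 40471, 16208 and 72535 in yellow libraries. All turning libraries stood above the green ones, and turning and yellow libraries overlapped. It ranked 18th in turning leaves, the highest turning rank of any member, and was the only member with a fitted fold change below 0 in the second interval, -0.70 ± 0.62 (SE; edgeR adjusted p = 0.401). Its first step was 3.58 ± 0.69 (SE; edgeR adjusted p = 0.0105). At rank 89, N was 35561, 35369 and 25771 in turning and 44166, 40769 and 28707 in yellow libraries, which overlapped, above 12399, 12142 and 15271 in green libraries. In contrast, the member at rank 80 was called in both intervals, with steps of 2.43 ± 0.18 and 1.23 ± 0.17 (SE; edgeR adjusted p = 0.00118 and 0.00105). Its N was 2861, 3381 and 3259 in green, 14035, 19782 and 17258 in turning and 39138, 44804 and 38405 in yellow libraries.

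The rule ranked stage means and did not use the spread between libraries of a stage directly. However, 1 high yellow library could bring a model in, and 1 high green library could keep a model out. The spread of green and yellow libraries is therefore not free of the choice of members. The highest library was over 2-fold above the lowest for 15 members among green, 20 among turning and 11 among yellow libraries. For the 62 models that led in green leaves only the counts were 17, 10 and 11, and for the 38 that led at both stages 5, 3 and 10. The median coefficient of variation of the members was 25.7% for green, 27.5% for turning and 21.0% for yellow libraries, against 18.5%, 20.9% and 25.7% over all models tested, which were mostly far less abundant. Single yellow libraries placed 52, 50 and 50 of the 62 members among their own 100 highest. All 3 did so for 37 members, 2 for 16 and 1 for 9.

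Among green and among turning libraries the members were most often highest in library 3. Green library 3 was the highest green library for 45 of 62 members and for 37.5% of all models tested. Turning library 3 was the highest turning library for 46 members and for 35.4% of all models. Both held for 35 members and for 21.3% of all models. Yellow library 3 was the highest for 26 members, as was yellow library 2, against 38.6% and 31.9% of all models. The models that led in green leaves only were highest in library 3 for 11 of 62 among green, 11 among turning and 10 among yellow libraries, and most often highest in library 1 in green and yellow leaves, for 35 each. With the library number as a block 52 members were called higher in each interval, when 36.8% and 50.9% of all models were called in either direction, against 24.1% and 41.5% without it.

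Yellow library 3 was over 2-fold above the geometric mean of yellow libraries 1 and 2 for 8 members, at yellow ranks 19, 25, 53, 58, 72, 74, 78 and 82. Over all models tested 11.5% were that far above, so the count of 8, out of 62, is near the background. All 8 were lowest in turning library 2 among the turning libraries and highest in green library 3 among the green ones, as were 36.8% of all models tested with such an excess in yellow library 3. Of the 8, 4 passed the test in the first interval and 1 in the second. At rank 19 the values of N were 8625, 10476 and 12438 in green, 131321, 29200 and 37233 in turning, and 109236, 59738 and 168880 in yellow libraries. At rank 25 they were 7572, 7581 and 8395 in green, 65520, 10158 and 12259 in turning, and 89777, 44235 and 147238 in yellow libraries. In both, turning library 1 stood above the other turning libraries by several fold and reached the yellow range.

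The second step of these 2 members did not pass in edgeR with all libraries, at 0.74 ± 0.59 for rank 19 (SE; edgeR adjusted p = 0.342) and 1.64 ± 0.72 for rank 25 (SE; edgeR adjusted p = 0.101). For rank 25 it passed with all libraries in DESeq2 (DESeq2 adjusted p = 0.0298) and limma-voom (limma-voom adjusted p = 0.0451). For rank 19 it did not (DESeq2 adjusted p = 0.266, limma-voom adjusted p = 0.214). Without turning library 1 the second step passed for both in edgeR, at 1.68 ± 0.43 and 2.98 ± 0.48 (SE; edgeR adjusted p = 0.0218 and 0.00489). The first step of the member at rank 19 was 2.65 ± 0.62 (SE; edgeR adjusted p = 0.0195) and fell to 1.68 ± 0.40 without turning library 1 (SE; edgeR adjusted p = 0.0339). Its call was lost without green library 1 (2.53 ± 0.76 SE, edgeR adjusted p = 0.0758) and without green library 2 (2.65 ± 0.78 SE, edgeR adjusted p = 0.073). The first step at rank 25 was 1.91 and did not pass in edgeR, and without turning library 1 it was 0.54 ± 0.42 (SE; edgeR adjusted p = 0.413). With all libraries that step passed in DESeq2 (DESeq2 adjusted p = 0.0194) but not in limma-voom (limma-voom adjusted p = 0.156). Yellow library 3 carried the member at rank 72 into the list, with N of 16046, 20848 and 94062 in yellow, 68333, 22613 and 34697 in turning, and 4407, 3891 and 14498 in green libraries. It was among the 100 highest of yellow library 3 alone, and yellow libraries 1 and 2 lay below all turning libraries. The opposite case was the member at rank 95, with 38530, 52147 and 20084 in yellow libraries.

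Library number 3 stood apart at every stage for the member at rank 82. Its N was 73, 122 and 842 in green, 826, 536 and 8533 in turning, and 26045, 28319 and 63573 in yellow libraries. Library 3 was the highest throughout, by 11.6-fold over the lowest of green, 15.9-fold of turning and 2.44-fold of yellow libraries. Without a term for the library number its steps were 3.26 ± 1.29 and 3.54 ± 1.30 (SE; edgeR adjusted p = 0.0971 and 0.057). In limma-voom, also without that term, the second step passed and the first did not (limma-voom adjusted p = 0.0111 and 0.0979). With the library number as a block both passed, at 3.05 ± 0.56 and 4.57 ± 0.60 (SE; edgeR adjusted p = 0.00767 and 0.00114). The first step depended on single libraries, at 5.10 ± 1.41 without green library 3 (SE; edgeR adjusted p = 0.0417) and 0.98 ± 0.96 without turning library 3 (SE; edgeR adjusted p = 0.524). The second step was 3.53 ± 1.08 and 5.81 ± 1.27 without the same libraries (SE; edgeR adjusted p = 0.0351 and 0.0115). Without any 1 of the other 7 libraries neither step passed, with an adjusted p of up to 0.244 in edgeR.

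**Figure D5:**
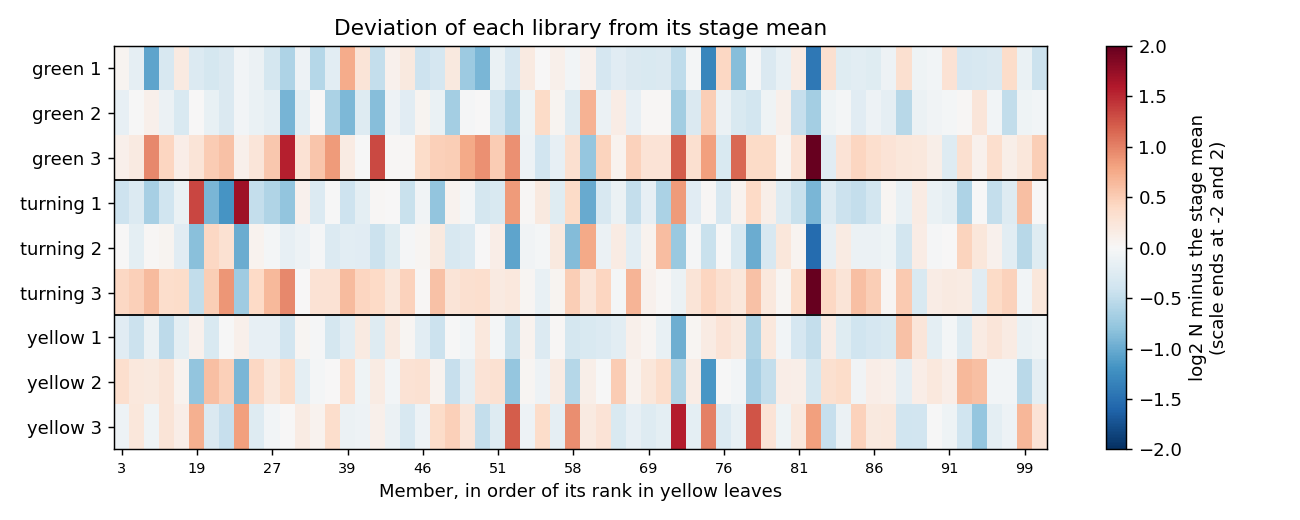
Difference of log2 N from the stage mean (colour, red above and blue below) for each of the 62 members in each of the 9 libraries, with members ordered by rank in yellow leaves. Green library 3 and turning library 3 are the highest of their stage for 45 and 46 members. Strong deviations of single libraries are seen at ranks 19, 25, 30, 72 and 82, among others.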

How the data were processed

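The table the authors deposited gives unnormalized counts of reads for each gene model in each library. CASAVA 1.8, HISAT2 2.0.4 and HTSeq 0.6.1 are listed in the submitters' processing notes, without their roles. Genome build, annotation and strand setting were not given in the sources used here, so overlapping or near-identical models could share counts. Size factors came from DESeq2 1.42.0. Models were kept by filterByExpr (minimum count 10, minimum total 15), scaled by TMM and fitted with edgeR 4.0.16 in R 4.3.3 (glmQLFit, robust, stage as the only term, 9 libraries, 6 residual degrees of freedom). All 62 members passed the filter. Tests were two-sided, with p adjusted by Benjamini-Hochberg over 23042 models and a threshold of 0.05. The script was tested on simulated data.

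Named models were the 2 most abundant members called higher in yellow than in turning leaves, and up to 2 called lower, of which there were none. The members, groupings and alternatives were chosen with earlier results of these data known. Name-based gene lists and cell type markers were not looked up, as no name table was used.

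Same-numbered libraries of different stages deviated together from their stage means (9 pairs, r from 0.24 to 0.66 across genes). The other 18 pairs had r from -0.52 to 0.03. Deviations from a mean of 3 libraries cancel within a stage, so the low values of these pairs follow in part from the 9 and are no separate support. The numbers were read as pairing the libraries, from the data and not the labels. The main fit left this pairing out, and the fit with the library number as a block is given as an alternative. No libraries of a stage agreed within sampling noise (chi-square per degree of freedom 43.9 to 138).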

Additional observations from a re-analysis of the deposited data

How the results depend on the processing

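The alternatives were other scalings, other filters, DESeq2, limma-voom (limma 3.58.1), robust = FALSE, only the compared stages, the replicate block and each library left out, plus turning library 1 and yellow library 3 left out together, chosen after seeing the data. The number of members was 31 with the 50 highest and 118 with the 200 highest models in place of 100. With 1 library left out it ran from 59 to 65, of which 53 to 62 were in the list of 62. The count of members called from green to turning leaves ran from 24 to 49 with 1 library left out, and the cause was not tested. With the replicate block 52 members were called in each interval, when 36.8% and 50.9% of all models were called. Among the 13 members whose fold changes were followed through the alternatives, the block changed the call at rank 82 alone. Off the midpoint were 4 members with library totals (5.91% of all models called), 13 with DESeq2 (11.0%), 2 with limma-voom (2.70%), 2 with the filter of 1 CPM, a count relative to the library total (3.42%), 10 with the replicate block (9.74%), 0 to 1 with 1 library left out (0.0421% to 2.35%) and 0 with both named libraries left out (0.202%), against 2.63% of all models with 1 member, and the cause was not tested. The members' median log2 fold changes in the first and second intervals were 1.14 and 1.08 with library totals, 1.23 and 1.39 with factors from the upper quartile, and 1.44 and 1.43 with both named libraries left out, and the first ran from 1.25 to 1.52 with 1 library left out. The first step of the member at rank 81 was -0.02 with library totals and -0.01 to 0.40 with 1 library left out. Precision is limited by 3 libraries per stage, not by depth, since the lowest member had 108 counts in a green library.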
